A study of Rattus norvegicus with 5 samples.

Results

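Neuropeptides released by stress, arousal and social cues act on the ventral tegmental area (VTA), the midbrain region that holds dopamine, GABA and glutamate neurons, through receptors that span the cell membrane and signal through G proteins. The 10 receptor genes described here were chosen by name as receptors for neurotensin (*Ntsr1*, *Ntsr2*), orexins (*Hcrtr1*, *Hcrtr2*), corticotropin-releasing factor and urocortins (*Crhr1*, *Crhr2*), oxytocin (*Oxtr*), tachykinins (*Tacr1*, *Tacr3*) and cholecystokinin (*Cckbr*). They are 10 of the 32883 genes that were counted. All 10 were measured in single-nucleus RNA sequencing libraries of VTA tissue from 5 adult male Sprague-Dawley rats, with 1 library per rat. The rats formed 1 group, given as saline in the sample labels and described as drug-naïve by the study, and no transgene or deletion was named for them. Punches from both sides of a rat's brain were combined, and a library also holds nuclei from tissue around the VTA where a punch reached it. The study used these libraries to ask which cells of the VTA carry a peptide receptor, and the same question is put here to the 10 receptors above.

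Most of these receptors couple to the Gq family of G proteins, which activate phospholipase C, release calcium from internal stores through inositol trisphosphate receptors and stimulate protein kinase C. The receptors for corticotropin-releasing factor act mainly through Gs and cyclic AMP. In dopamine neurons, neurotensin, orexins and tachykinins are known to raise firing in part by opening nonselective cation channels and closing potassium channels.

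The libraries held 10193355 to 88576210 unique molecular identifiers (UMIs, 1 per captured transcript). Barcodes with at least 1000 UMIs, more than 200 and fewer than 5000 genes and under 5% mitochondrial UMIs numbered 1813, 9336, 2284, 4823 and 3828 in rats 1 to 5, or 22084 in all, and 21016 were left after likely doublets were removed. In rats 1 and 2, 3121 and 3514 barcodes were lost to the mitochondrial limit, against 18 to 411 in the other rats. Libraries shared at most 16 barcodes with each other. Nuclei were clustered without the 10 receptors and without their ligand and signaling genes, and clusters were named by marker genes, so the receptors had no part in the classes compared. The classes were 1059 dopamine-like, 2658 GABA-like and 824 glutamate-like neurons and, among glia, 1118 astrocyte-like, 8371 oligodendrocyte-like and 794 oligodendrocyte precursor (OPC)-like nuclei. Rat 1 gave only 12 dopamine-like and 23 glutamate-like neurons, whereas rats 2 to 5 gave 377, 323, 158 and 189 dopamine-like neurons. Levels below are UMIs of a gene per 10000 UMIs of all genes, summed over the nuclei of a class in a rat. On this scale *Th*, the rate-limiting enzyme of dopamine synthesis, averaged 7.46 in dopamine-like neurons, 0.49 in GABA-like and 0.86 in glutamate-like neurons. The GABA-synthesizing enzyme gene *Gad2* averaged 2.71 in GABA-like neurons and the vesicular glutamate transporter gene *Slc17a6* 2.06 in glutamate-like neurons, each above its level in the other neurons.

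The 250 bases before the RefSeq start site (rat assembly GRCr8) are shown for *Tacr3*, which was called higher in dopamine-like than in other neurons, *Hcrtr2*, which was called lower in all 3 glial classes than in neurons, *Crhr1*, which was called higher in OPC-like nuclei, and *Ntsr2*, which was called higher in astrocyte-like nuclei. Each is written 5′ to 3′ on the strand of the gene. Capitals mark matches, on either strand, to AGGTCA (the core site of many nuclear receptors), TAATCC (the core of Pitx and Otx sites), TGACG (part of the cyclic AMP response element), TAATTA (a core of homeodomain sites), GGGCGG (the GC box) and TATAAA (the TATA box).
Tacr3, chr2:225940247-225940496, plus strand: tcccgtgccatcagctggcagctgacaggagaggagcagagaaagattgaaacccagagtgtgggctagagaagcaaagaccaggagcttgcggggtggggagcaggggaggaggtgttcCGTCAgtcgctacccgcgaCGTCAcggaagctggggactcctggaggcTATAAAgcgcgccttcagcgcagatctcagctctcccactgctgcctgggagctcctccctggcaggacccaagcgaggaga
Hcrtr2, chr8:85986406-85986655, minus strand: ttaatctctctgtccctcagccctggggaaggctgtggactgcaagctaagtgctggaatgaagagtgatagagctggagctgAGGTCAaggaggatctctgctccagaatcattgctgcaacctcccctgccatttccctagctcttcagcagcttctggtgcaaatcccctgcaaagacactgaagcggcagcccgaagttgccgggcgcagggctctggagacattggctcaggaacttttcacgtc
Crhr1, chr10:89539959-89540208, plus strand: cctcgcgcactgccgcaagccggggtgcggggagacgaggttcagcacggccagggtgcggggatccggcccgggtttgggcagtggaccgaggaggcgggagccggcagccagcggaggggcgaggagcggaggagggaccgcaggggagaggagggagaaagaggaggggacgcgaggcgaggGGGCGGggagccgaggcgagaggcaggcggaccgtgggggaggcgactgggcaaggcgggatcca
Ntsr2, chr6:45152845-45153094, plus strand: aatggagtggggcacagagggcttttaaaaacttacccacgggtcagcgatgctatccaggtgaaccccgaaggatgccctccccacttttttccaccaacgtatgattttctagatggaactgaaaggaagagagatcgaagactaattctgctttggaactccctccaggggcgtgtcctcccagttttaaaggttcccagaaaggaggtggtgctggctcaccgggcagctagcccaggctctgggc
The *Tacr3* window held TGACG at 130 and 111 bases before the start, both on the opposite strand, and TATAAA at 82 bases. The *Hcrtr2* window held AGGTCA at 167 bases and the *Crhr1* window GGGCGG at 65 bases, while the *Ntsr2* window held none of the 6. RefSeq also gave *Crhr1* another start, not shown, from which the same GGGCGG was at 48 bases. Of 33469 rat promoter windows of this length, 14.1% held AGGTCA, 6.34% TAATCC, 18.2% TGACG, 4.86% TAATTA, 30.5% GGGCGG and 12.9% TATAAA, so each of these matches is common. G and C made up 62.0% of the *Tacr3* window, 55.2% of that of *Hcrtr2*, 75.2% of that of *Crhr1* and 53.2% of that of *Ntsr2*, against a median of 51.2% over all windows.

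*Tacr3*, the receptor that prefers neurokinin B, was higher in dopamine-like neurons than in the other neuron classes in every rat. Its level in dopamine-like neurons was 2.23, 2.47, 1.47, 1.84 and 2.55 in rats 1 to 5, a mean of 2.11 ± 0.454 (SD, n = 5). In GABA-like neurons it was 0.540, 0.928, 0.377, 0.394 and 0.491, and in glutamate-like neurons 0.117, 0.400, 0.186, 0.322 and 0.238. The lowest dopamine-like level thus lay above the highest level of either other class, while GABA-like and glutamate-like levels overlapped by a narrow range. The log2 fold change of dopamine-like against GABA-like neurons was 1.95 (SE 0.141, adjusted p = 1.72e-09, edgeR quasi-likelihood test with the rat as a block and Benjamini-Hochberg adjustment, as for every adjusted p below) and that against glutamate-like neurons 2.90 (SE 0.182, adjusted p = 5.21e-10). *Tacr3* was also higher in GABA-like than in glutamate-like neurons in 5 of 5 rats, by 0.95 (SE 0.191, adjusted p = 0.00266). This last call was lost without the block (1.02, adjusted p = 0.178) and when nuclei were typed singly by their own marker genes (0.51, adjusted p = 0.248). The calls for dopamine-like neurons held under each of 14 alternatives, with log2 fold changes of 1.71 to 2.20 against GABA-like and 2.53 to 3.06 against glutamate-like neurons.

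At least 1 *Tacr3* UMI was found in 43.3% of dopamine-like neurons (exact 95% interval 40.3 to 46.4), 14.3% of GABA-like and 11% of glutamate-like neurons. In oligodendrocyte-like nuclei, taken as a class in which free RNA in the suspension would account for such UMIs, the share was 1.78%. Nuclei were not equally deep, with medians of 5409, 5478.5 and 4460.5 UMIs in dopamine-like, GABA-like and glutamate-like neurons and 2859 in oligodendrocyte-like nuclei. Thinned to 1000 UMIs per nucleus, the shares were 15.5%, 4.71%, 2.94% and 0.599%, in the same order. Intervals on shares and floors cover counting error only.

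*Tacr1*, the receptor that prefers substance P, was lower in dopamine-like neurons than in the other neuron classes. Its level in dopamine-like neurons was 0, 0.039, 0.015, 0.040 and 0.079 in rats 1 to 5. In GABA-like neurons it was 0.228, 0.120, 0.057, 0.227 and 0.135, and in glutamate-like neurons 0.234, 0.112, 0.093, 0.364 and 0.303. It was lower in dopamine-like neurons within every rat, and across rats the dopamine-like levels overlapped the GABA-like but not the glutamate-like levels. The 0 of rat 1 rests on 12 nuclei and allows a level of up to 0.515. The log2 fold change of dopamine-like neurons was -1.62 against GABA-like (SE 0.298, adjusted p = 0.00032) and -2.09 against glutamate-like neurons (SE 0.330, adjusted p = 9.08e-05). Typed by own markers, the difference from GABA-like neurons was -0.94 (adjusted p = 0.0747). GABA-like and glutamate-like neurons differed by -0.47 (SE 0.239, adjusted p = 0.394), which did not pass the test and was between -0.72 (without rat 2) and -0.29 (without rat 5) when single rats were left out. *Tacr1* UMIs were found in 2.27% of dopamine-like, 4.70% of GABA-like and 5.58% of glutamate-like neurons, against 0.263% of oligodendrocyte-like nuclei.

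**Figure D1:**
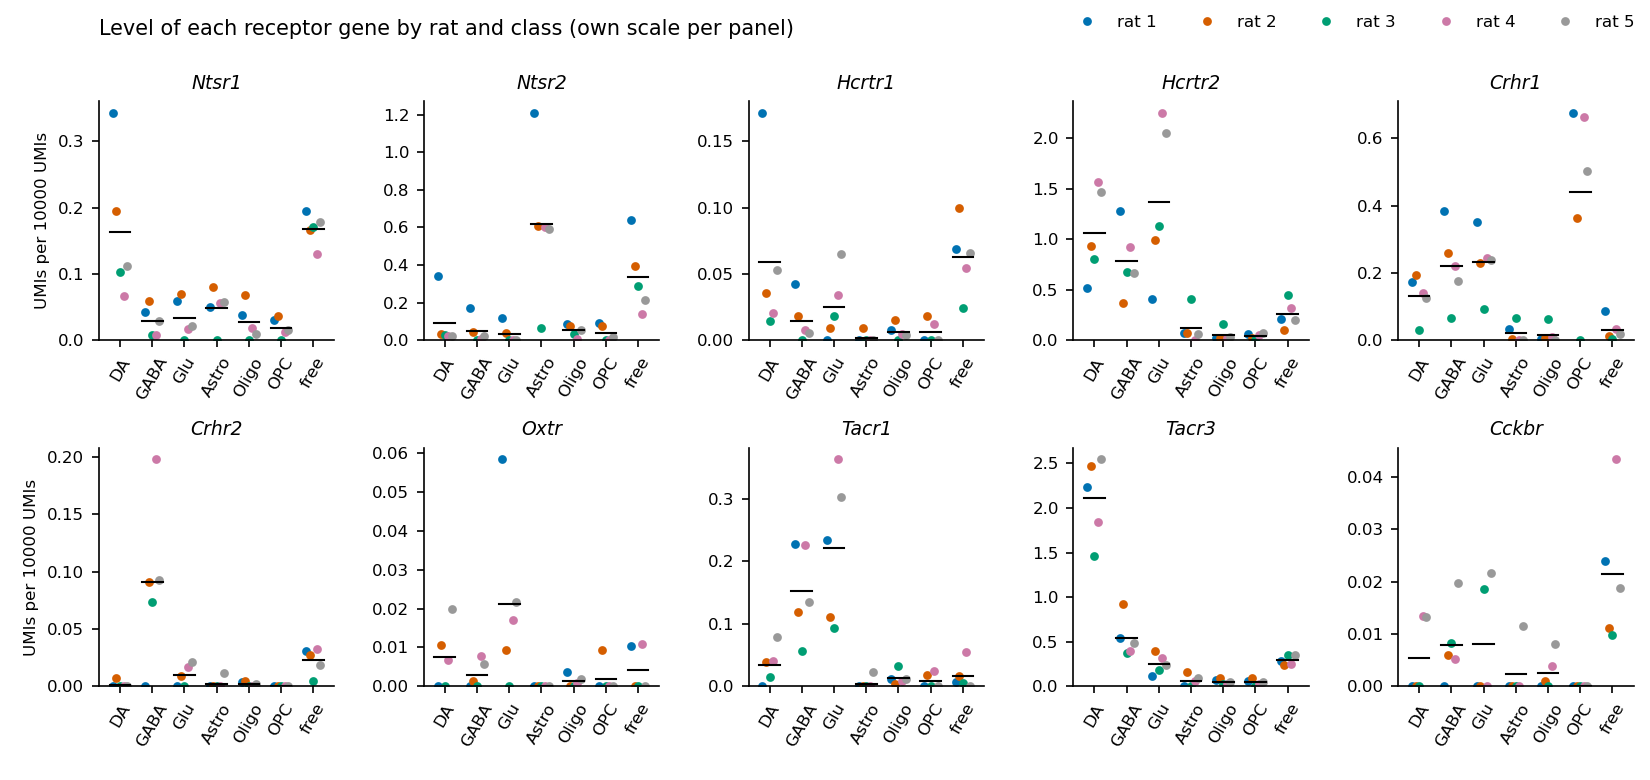
Level of each receptor gene (UMIs per 10000 UMIs, linear axes that differ between panels) in 6 classes of nuclei and in free RNA (free), with 1 colored point per rat and a black bar at the mean of the 5 rats. The 5 *Tacr3* points of dopamine-like neurons, from 1.47 to 2.55, lie above all other *Tacr3* points, and *Ntsr2* and *Crhr1* have their highest mean in astrocyte-like and OPC-like nuclei.

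*Hcrtr2*, the receptor that binds both orexins, was found in every neuron class, with 3560 UMIs in all nuclei kept, against 3775 of *Tacr3*. Its level in dopamine-like neurons was 0.515, 0.929, 0.806, 1.57 and 1.47 in rats 1 to 5, and in glutamate-like neurons 0.409, 0.996, 1.13, 2.25 and 2.05. In GABA-like neurons it was 1.28, 0.372, 0.673, 0.927 and 0.663. Levels of the classes overlapped, and rat 1 was opposite to the other 4 rats in that its GABA-like neurons had the highest level. GABA-like neurons were not the same mixture in each rat. Their sub-cluster 1, high in *Hcrtr2* (below), held 69, 263 and 22 nuclei of rats 1, 2 and 3 before doublets were removed. The whole class held 99, 982 and 695 after it. The part of this mixture in the differences was not tested. Dopamine-like neurons had more *Hcrtr2* than GABA-like neurons in 4 of 5 rats, with a log2 fold change of 0.79 (SE 0.222, adjusted p = 0.0131). GABA-like neurons had less than glutamate-like neurons in the same rats (-1.04, SE 0.224, adjusted p = 0.00488). Dopamine-like against glutamate-like neurons gave -0.25 (SE 0.227, adjusted p = 0.561), which did not pass and was -0.14 without rat 4. Both calls against GABA-like neurons were lost with DESeq2 (0.52, adjusted p = 0.345, and -0.77, adjusted p = 0.238) and without the block (0.53, adjusted p = 0.830, and -0.83, adjusted p = 0.975). Without rat 5 they were lost too (adjusted p = 0.132 and 0.0851), as was the first without rat 2 (adjusted p = 0.115) and the second without rat 4 (adjusted p = 0.0548).

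*Hcrtr2* UMIs were found in 27.9% of dopamine-like, 17.2% of GABA-like and 29.4% of glutamate-like neurons and in 0.657% of oligodendrocyte-like nuclei. After thinning to 1000 UMIs these were 8.65%, 5.27%, 10.4% and 0.230%. *Hcrtr1*, the receptor that prefers orexin-A, was sparse, with 140 UMIs in all nuclei kept, and did not pass the filter on low counts among neurons. It was counted 23 times in dopamine-like neurons, against 5.41 UMIs that free RNA would give, and 20 times in GABA-like neurons, against 13.9. Its levels in dopamine-like neurons were 0.172, 0.035, 0.015, 0.020 and 0.053, the first of which is a single UMI. With no filter, dopamine-like against GABA-like neurons gave 1.55 (adjusted p = 0.047). For *Hcrtr2* in the same comparison, leaving out the filter took the adjusted p from 0.0131 to 4.69e-07 and the SE from 0.222 to 0.134. The fold change hardly moved (0.79 and 0.75). Calls made with no filter, here and below, are therefore given as a description only.

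*Crhr1*, the main receptor for corticotropin-releasing factor in the brain, had low and overlapping levels in the neuron classes. In dopamine-like neurons its level was 0.172, 0.194, 0.029, 0.141 and 0.125 in rats 1 to 5, in GABA-like neurons 0.384, 0.258, 0.066, 0.219 and 0.175, and in glutamate-like neurons 0.351, 0.228, 0.093, 0.246 and 0.238. It was lowest in dopamine-like neurons within each rat, but the ranges of the classes overlapped, and rat 3 was low in all of them. Dopamine-like against GABA-like neurons gave -0.52 (SE 0.179, adjusted p = 0.0441), a call that 11 of 13 alternatives did not keep, with adjusted p up to 0.603 (without the block). Leaving out any 1 rat was among these, with adjusted p between 0.0671 and 0.202. Against glutamate-like neurons the difference was -0.53 (SE 0.213, adjusted p = 0.101) and -0.83 without rat 2, and GABA-like against glutamate-like neurons gave -0.01 (SE 0.182, adjusted p = 1). Neither passed the test.

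*Crhr2*, which prefers urocortins, was counted mainly in GABA-like neurons. It had 179 UMIs in GABA-like neurons, 5 in glutamate-like and 2 in dopamine-like neurons, where free RNA would give 4.28, 1.18 and 1.64. The level in GABA-like neurons was 0, 0.091, 0.074, 0.198 and 0.093 in rats 1 to 5, and both UMIs of dopamine-like neurons came from rat 2. It therefore did not pass the filter on low counts. With no filter the test called it lower in dopamine-like than in GABA-like neurons (log2 fold change -4.96) and higher in GABA-like than in glutamate-like neurons (3.36). In the 1 fit with 1 rat left out where it passed the filter, these were -4.96 and 3.33, also given as a description. In GABA-like neurons 4.97% of nuclei had a *Crhr2* UMI, against 0.0944% of dopamine-like neurons and 0.072% of oligodendrocyte-like nuclei. Vascular-like nuclei had 9 *Crhr2* UMIs, where free RNA would give 1.42. All were from rat 2, at a level of 0.126, above the 0.091 of its GABA-like neurons.

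Among the named classes *Ntsr1*, the high-affinity neurotensin receptor, had its highest mean in dopamine-like neurons at a low level. There it was 0.343, 0.194, 0.103, 0.067 and 0.112 in rats 1 to 5, on 2, 55, 7, 10 and 17 UMIs. In GABA-like neurons it was 0.043, 0.060, 0.008, 0.008 and 0.028, and in glutamate-like neurons 0.058, 0.070, 0, 0.017 and 0.022. The dopamine-like level was the higher in each rat and the lowest of these, 0.067, was above the highest GABA-like level. It did not pass the filter. With no filter the log2 fold change was 2.08 against GABA-like and 1.92 against glutamate-like neurons, and both were called. In the 2 fits with 1 rat left out where *Ntsr1* passed the filter, these were 1.99 to 2.07 and 1.73 to 1.89, also given as a description. Free RNA itself held *Ntsr1* at 0.195, 0.166, 0.171, 0.130 and 0.178 per 10000 UMIs, which was above the dopamine-like level in rats 3, 4 and 5. Scaled to the share of free RNA in these nuclei, it would give 10.5 of the 91 UMIs counted in dopamine-like neurons. A further sub-cluster with dopamine markers, sub-cluster 5, had a higher *Ntsr1* level but was given no class, and is described below.

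*Oxtr* and *Cckbr* were close to the limit of detection. *Oxtr* had 29 UMIs in all nuclei kept, of which 6 were in glutamate-like, 7 in dopamine-like and 6 in GABA-like neurons. *Cckbr* had 57 UMIs, of which 14 were in GABA-like, 4 in dopamine-like and 2 in glutamate-like neurons. Neither passed the filter, and neither was called between neuron classes with no filter. No *Oxtr* UMI was found in 1118 astrocyte-like nuclei, which allows a share of nuclei with a UMI of up to 0.268%, and no *Cckbr* UMI in 794 OPC-like nuclei, which allows up to 0.378%. At this depth a nucleus can express a gene without giving a UMI, so these limits do not bound the share of nuclei that express it.

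By count, 4 of the 10 receptors passed the filter among neurons and could be tested, *Hcrtr2*, *Crhr1*, *Tacr1* and *Tacr3*. All 4 were called between dopamine-like and GABA-like neurons, 2 higher and 2 lower in dopamine-like neurons, where 21.3% of all genes tested were called. In dopamine-like against glutamate-like neurons 2 of the 4 were called (17.1% of all genes) and in GABA-like against glutamate-like neurons 2 of the 4 (6.56%).

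**Figure D2:**
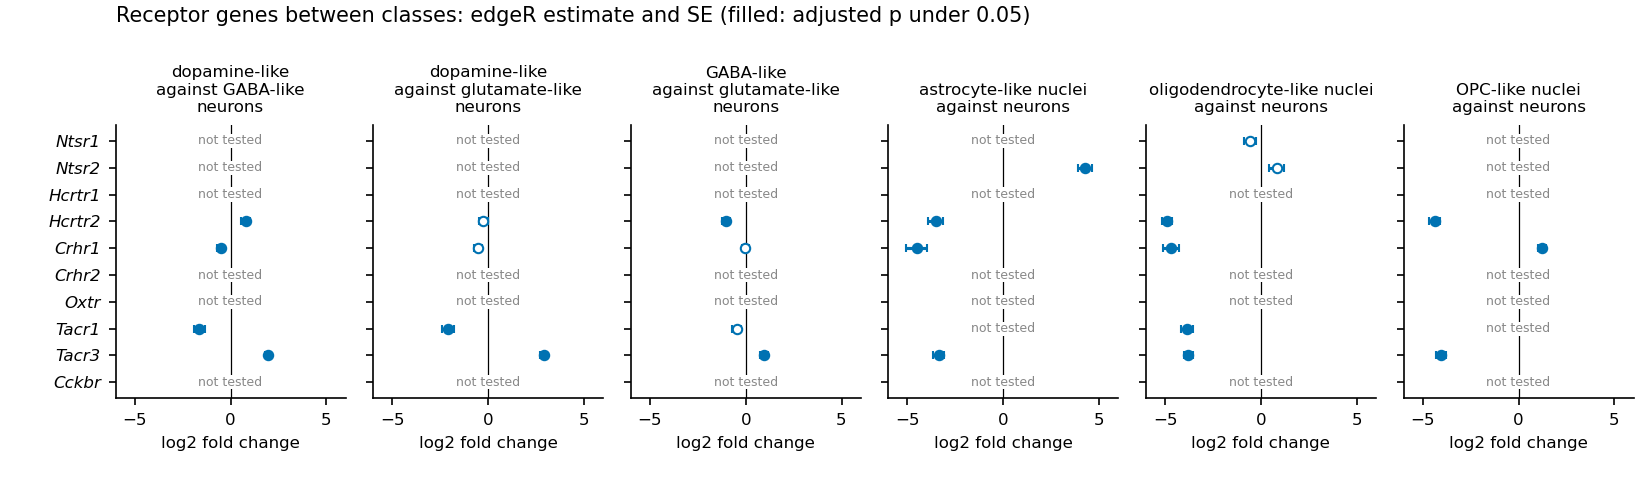
Estimated log2 fold change (x axis) with its SE for each receptor gene that passed the filter in the 6 comparisons of classes, from the fit with the rat as a block, filled where the adjusted p was under 0.05. *Tacr3* is at 1.95 and 2.90 in the panels of dopamine-like neurons, and *Ntsr2* in astrocyte-like and *Crhr1* in OPC-like nuclei are the called points to the right of 0 among glia.

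In glia, *Ntsr2* was called higher in astrocyte-like and *Crhr1* in OPC-like nuclei than in neurons, and 9 other differences were called lower. *Ntsr2*, the low-affinity neurotensin receptor, had its highest mean in astrocyte-like nuclei. Its level there was 1.21, 0.608, 0.067, 0.603 and 0.592 in rats 1 to 5, on 72, 129, 1, 32 and 51 UMIs, against 0.172, 0.040, 0.008, 0.008 and 0.018 in the neurons of the 3 classes summed. The astrocyte-like level was the higher in 5 of 5 rats, and overlapped the neurons only through the single UMI of rat 3. This was a log2 fold change of 4.24 (SE 0.368, adjusted p = 1.25e-06), and 6.45 with free RNA subtracted. *Ntsr2* was found in 19.7% of astrocyte-like nuclei (5.98% after thinning, median 3229.5 UMIs) and in 1.52% of oligodendrocyte-like nuclei (0.518% after thinning). Free RNA would give 39.5 of the 285 UMIs in astrocyte-like nuclei. In each neuron class the UMIs counted were at or under those free RNA would give, with 19 against 21.1 in dopamine-like, 51 against 55.9 in GABA-like and 10 against 15.6 in glutamate-like neurons.

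*Crhr1* was higher in OPC-like nuclei than in neurons. Its level in OPC-like nuclei was 0.675, 0.363, 0, 0.663 and 0.501 in rats 1 to 5, on 22, 39, 0, 53 and 34 UMIs, and in neurons 0.365, 0.237, 0.061, 0.206 and 0.167. It was higher in OPC-like nuclei in 4 of 5 rats. The 0 of rat 3 rests on 49 nuclei and allows a level of up to 0.387. The difference on the log2 scale was 1.22 (SE 0.220, adjusted p = 6.99e-05), and without the block 1.31 (adjusted p = 0.0586). *Crhr1* was found in 15.2% of OPC-like nuclei (exact 95% interval 12.8 to 17.9), against 0.215% of oligodendrocyte-like and 0.268% of astrocyte-like nuclei. Thinned, these shares were 4.55%, 0.069% and 0.056%. Of 148 UMIs in OPC-like nuclei, free RNA would give 1.14. The mean level of each of the 7 neuron markers was lower in OPC-like nuclei than in every neuron class, for instance 5.52 against 16.1 to 65.2 for *Syt1*, whereas *Gad2* was at a mean of 3.19 (1.35 to 6.27 over the rats), above the 2.71 of GABA-like neurons (2.02 to 3.80). The OPC marker *Pdgfra* was at 10.4, and at 0.05 or less in the neuron classes.

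Against neurons, *Tacr3* was lower by a log2 fold change of -3.38 in astrocyte-like (SE 0.292), -3.78 in oligodendrocyte-like (SE 0.213) and -4.03 in OPC-like nuclei (SE 0.265). *Hcrtr2* gave -3.53 (SE 0.379), -4.88 (SE 0.263) and -4.38 (SE 0.268), and *Crhr1* -4.51 in astrocyte-like (SE 0.550) and -4.69 in oligodendrocyte-like nuclei (SE 0.435). *Tacr1* gave -3.85 in oligodendrocyte-like nuclei (SE 0.304). The adjusted p of these 9 differences was at most 2.12e-05. With free RNA subtracted the oligodendrocyte-like differences were -5.89 for *Tacr3* and -8.67 for *Hcrtr2*, and with own markers *Hcrtr2* gave -3.12 in oligodendrocyte-like and -2.39 in OPC-like nuclei. In oligodendrocyte-like nuclei *Ntsr1* (-0.55, SE 0.324, adjusted p = 0.147) and *Ntsr2* (0.82, SE 0.389, adjusted p = 0.0828) did not pass, with counts of 97 and 130 UMIs where free RNA would give 80.6 and 157. With free RNA subtracted *Ntsr1* was called lower there (-2.34, adjusted p = 0.0224). *Ntsr2* was called higher there with no filter (0.84), with own markers (1.09), without rat 1 (1.25) and without rat 4 (1.16), but was at 0.39 without rat 5 (adjusted p = 0.437) and 0.52 without rat 2. *Ntsr1* was at -0.33 without rat 5 and -0.86 without rat 2, with no call in either. In all, 4 of 4 receptors tested were called in astrocyte-like nuclei, where 52.7% of all genes were called, 4 of 6 in oligodendrocyte-like nuclei, where 71.6% were, and 3 of 3 in OPC-like nuclei, where 45.5% were. With so few receptors tested, these counts do not set the receptors apart from other genes.

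**Figure D3:**
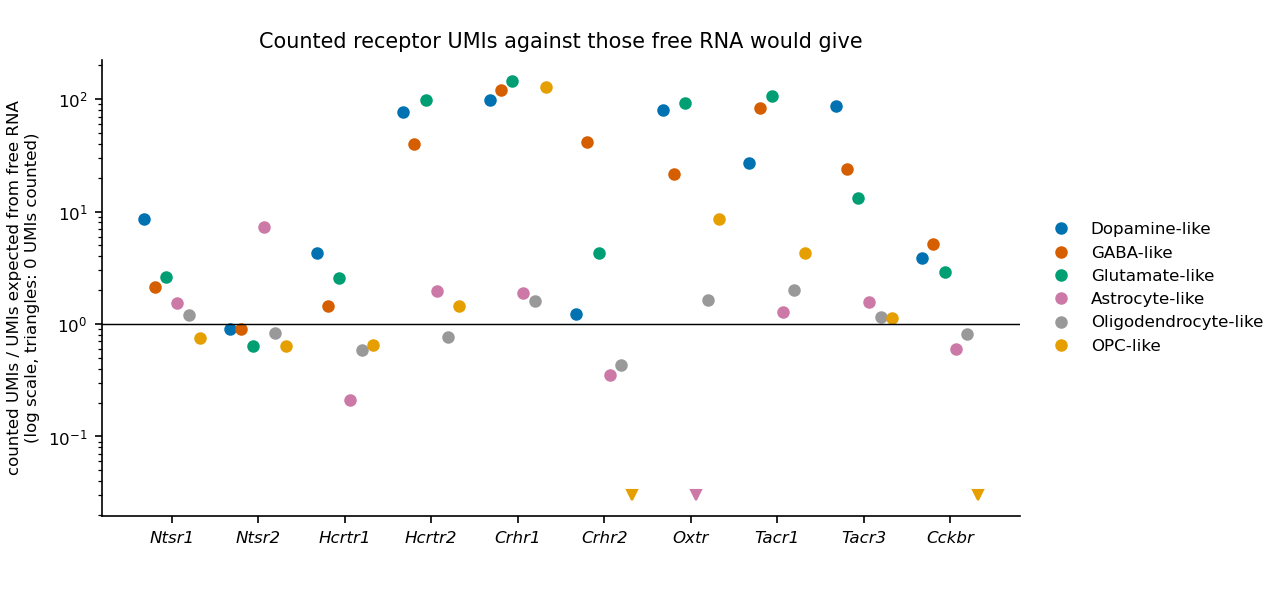
Ratio of counted UMIs to the UMIs that free RNA would give (y axis, log scale, line at 1) for each receptor gene in 6 classes of nuclei, summed over rats, with triangles where 0 UMIs were counted. *Tacr3*, *Hcrtr2*, *Crhr1* and *Tacr1* lie far above the line in the neuron classes, and *Ntsr2* lies above it in astrocyte-like nuclei and close to it elsewhere.

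Dopamine-like neurons fell into 3 sub-clusters, in which the receptors differed in level. Sub-cluster 11 (258 nuclei) was led by *Ntf3*, *Drd2*, *Tmem207* and *Trpc6*, sub-cluster 12 (233 nuclei) by *Aldh1a1*, *Greb1*, *Ntn1* and *Plod2*, and sub-cluster 2 (568 nuclei, 308 of them from rat 3) held shallower nuclei, with a median of 2337.5 UMIs over its 600 nuclei before doublets were removed. *Hcrtr2* was at 0.544 in sub-cluster 11 and 2.07 in sub-cluster 12 over all rats. By rat it was 0.55, 0.19 and 0.79 in sub-cluster 11 (rats 2, 4 and 5) and 1.79, 3.36, 2.31 and 2.02 in sub-cluster 12 (rats 2 to 5), so these rats did not overlap. *Tacr3* was at 2.70 in sub-cluster 11 and 2.21 in sub-cluster 12, with overlapping rats. In sub-cluster 2 *Hcrtr2* was at 1.12 and *Tacr3* at 1.71. Differences between sub-clusters were not tested, since sub-clusters of 1 class were cut from the same nuclei, and are given as a description.

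**Figure D4:**
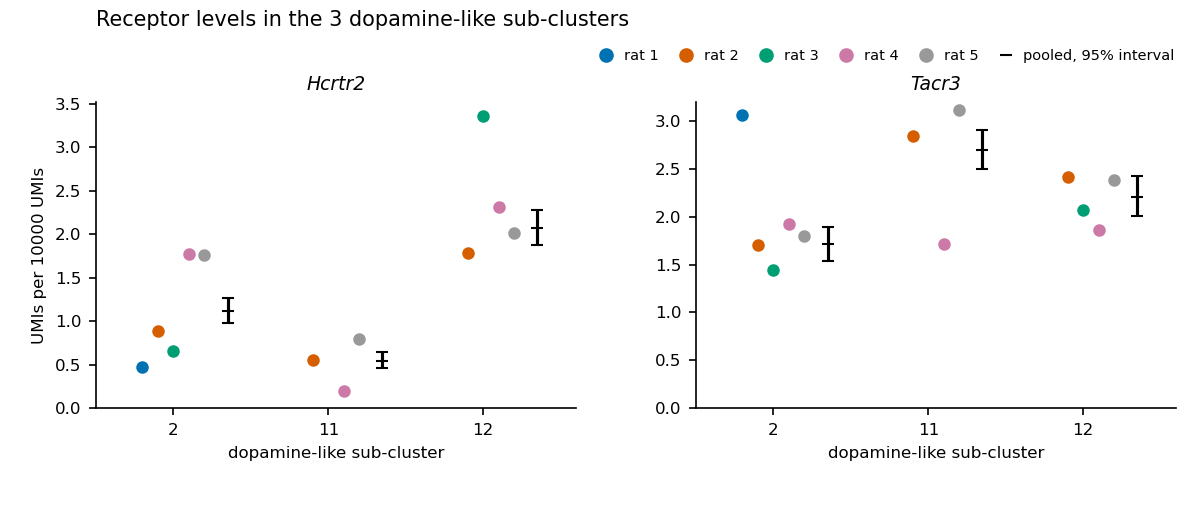
Level of receptor genes (UMIs per 10000 UMIs) in dopamine-like sub-clusters 2, 11 and 12, with 1 colored point per rat and a black mark with its exact 95% counting interval for all rats pooled. For *Hcrtr2* the points of sub-cluster 12, from 1.79 up, lie above those of sub-cluster 11, while for *Tacr3* the points of both overlap.

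In GABA-like neurons the levels also varied between sub-clusters. Sub-cluster 9, led by *Sox6*, *Corin* and *Pdgfd* (287 nuclei), held 139 of the 179 *Crhr2* UMIs of GABA-like neurons, at 0.68, 1.09, 0.76 and 0.78 in rats 2 to 5, and had no nucleus of rat 1. It also had *Tacr3* at 1.64 and *Crhr1* at 0.352, but *Hcrtr2* at only 0.038. Sub-cluster 19, led by *Pax3*, *Tcf7l2* and *Epyc*, had the highest *Tacr3* of all neuron sub-clusters, at 3.51, and no *Hcrtr2* UMI. It held 98 nuclei, 76 of them from rat 2 and 21 from rat 3. Sub-cluster 18, led by *Gata3* and *Htr4*, had *Tacr3* at 1.32, and sub-cluster 21, with the opioid genes *Penk* and *Oprm1* among its leading genes, had *Crhr1* at 0.885 in 53 nuclei. *Hcrtr2* in GABA-like neurons was highest in sub-cluster 8, led by *Sox14* and *Ikzf1*, at 1.12, and in sub-cluster 1, led by *Npas1*, at 1.04, whereas sub-cluster 7 had 0.030.

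In glutamate-like neurons *Hcrtr2* was at 1.71 in sub-cluster 4 (519 nuclei, led by *Lmx1a* and *Gna14*) and 2.17 in sub-cluster 17 (112 nuclei of rats 2 and 3, led by *Slc17a7* and *Rbm20*). It was at only 0.076 in sub-cluster 14, of which rat 2 gave the most nuclei and in which the glycine transporter gene *Slc6a5* was a leading gene. That sub-cluster had more *Tacr3*, at 0.770. Sub-cluster 17 had no *Tacr1* UMI and *Crhr1* at 0.640. Outside the 3 classes, sub-cluster 15 was led by *Tph2* and *Slc6a4*, genes of serotonin synthesis and uptake, and had *Hcrtr2* at 2.16 and *Tacr3* at 1.0 in 177 nuclei. Sub-cluster 5 was left out of the dopamine-like class because it held markers of more than 1 class. It had *Th* at 27.6 and *Slc6a3* at 39.1, with *Gad1* at 0.911 and *Gad2* at 2.36. It was led by *Slc6a3*, *Th* and *Cck*, had 510 nuclei with a median of 1390.5 UMIs and 3.43% mitochondrial UMIs, 400 of them from rat 2, and had *Ntsr1* at 1.36 and *Tacr3* at 1.33. Its *Ntsr1* level by rat was 0.987, 1.61, 0.961 and 0.334 in rats 1, 2, 4 and 5, above the *Ntsr1* level of the dopamine-like class in each. In the 3 dopamine-like sub-clusters *Th* was at 5.66 to 8.01 and *Slc6a3* at 4.65 to 10.5. Free RNA held *Th* at 6.73 and *Slc6a3* at 5.71, and its part in sub-cluster 5 was not tested.

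**Figure D5:**
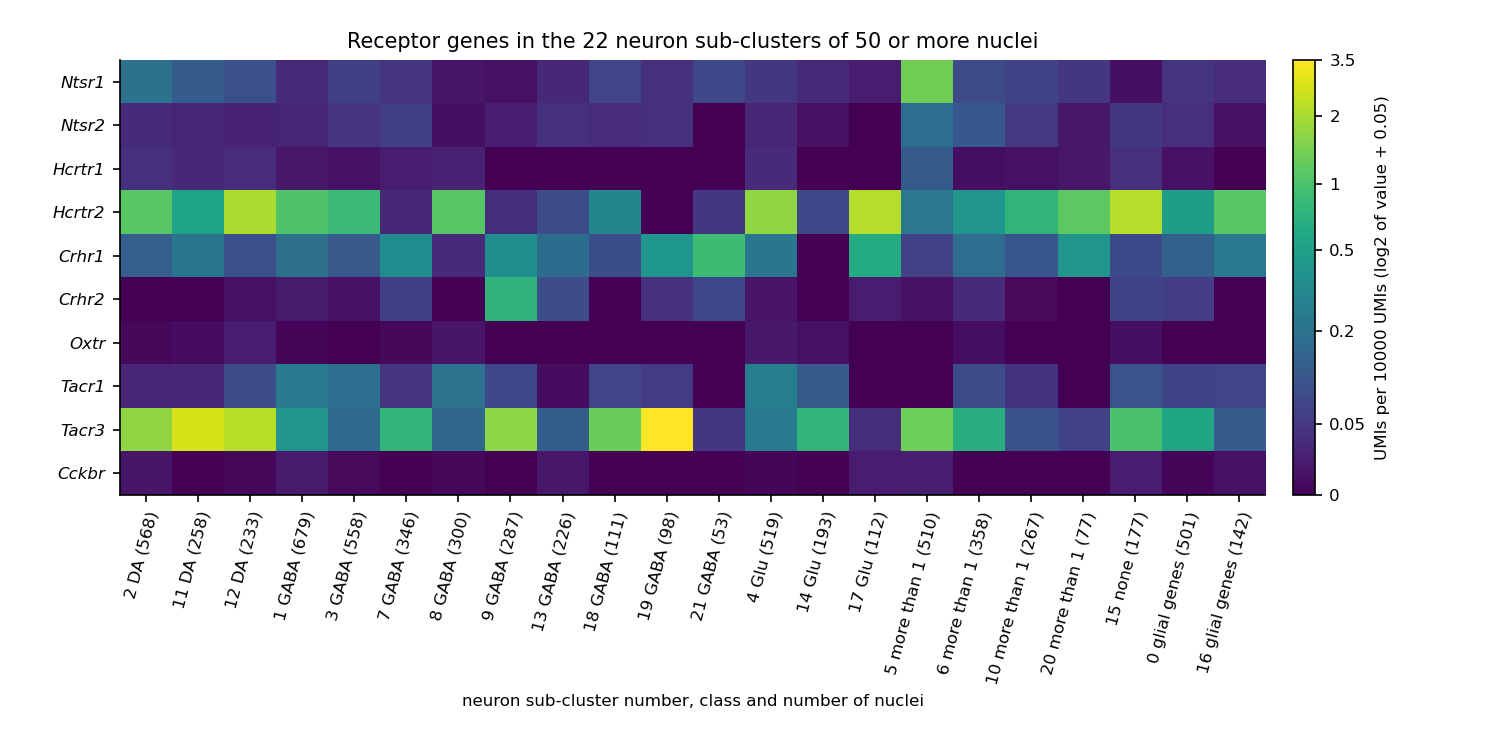
Level of the 10 receptor genes (rows, color scale in UMIs per 10000 UMIs on the scale log2 of value + 0.05) in the 22 neuron sub-clusters of at least 50 nuclei (columns, with class and number of nuclei, where columns marked more than 1, none or glial genes were given no class), summed over rats. *Tacr3* peaks in GABA-like sub-cluster 19 and is high in dopamine-like sub-clusters, *Hcrtr2* peaks in glutamate-like, dopamine-like and unnamed sub-clusters, and *Crhr2* stands out in GABA-like sub-cluster 9.

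A UMI of any of the 10 receptors was found in 62.1% of dopamine-like, 42.9% of GABA-like and 46.8% of glutamate-like neurons and in 26.1% of astrocyte-like, 20.9% of OPC-like and 5.84% of oligodendrocyte-like nuclei, all rats pooled. With equal weight for each rat these shares were 64.5% ± 17.2 (SD, n = 5), 47.3% ± 18.1 and 56.5% ± 21.5 in the neuron classes, and in rat 4 the glutamate-like share (71.3%) was above the dopamine-like share (69%). The differences were not tested. Thinned to 1000 UMIs the pooled shares were 25.9%, 14.2%, 16.7%, 8.61%, 6.66% and 2.01%. With equal weight for each rat the thinned shares of the neuron classes were 27.2% ± 4.24, 15.8% ± 4.86 and 18.4% ± 5.02. In rat 4 the thinned dopamine-like share (26.7%) was above the glutamate-like share (23.2%). UMIs of at least 2 receptors were found in 24.5% of dopamine-like, 11.2% of GABA-like and 11.8% of glutamate-like neurons, and after thinning in 1.93%, 0.695% and 0.914%. As deposited, *Hcrtr2* was found in 34% of dopamine-like neurons that had a *Tacr3* UMI (156 of 459) and in 23.2% of those that had none (139 of 600), but the former had a median of 8538 UMIs and the latter 3023.5. After thinning the order turned, with 7.31% against 8.89%, and the share with *Tacr3* was the lower in 5 of 5 rats. The shares were close in rat 2 (7.03% against 7.41%) and rat 5 (10.6% against 11.2%). They were further apart in rat 3 (4.44% against 7.65%) and rat 4 (8.37% against 11.9%), and rat 1 had only 12 dopamine-like neurons. Whether the 2 receptors avoid each other was not tested. In GABA-like neurons *Hcrtr2* was found in 14.7% with and 17.7% without *Tacr3*, and in 2.19% and 5.43% after thinning, the former lower in 4 of 5 rats. *Crhr2* was found in 12.9% of GABA-like neurons with *Tacr3* and 3.65% of those without, and in 2.47% and 1.0% after thinning. The share with *Tacr3* was the higher in rats 2, 4 and 5. In rat 3 it was 0% against 0.856% after thinning, and in rat 1 both shares were 0%. Sub-cluster 9, which held most of these *Crhr2* UMIs, also had *Tacr3* (above).

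The genes for the peptides themselves were unevenly present. *Cck*, the cholecystokinin precursor, was at 4.29, 2.61, 0.293, 0.903 and 1.44 in dopamine-like neurons of rats 1 to 5, and was higher than in GABA-like neurons by 2.24 on the log2 scale (adjusted p = 2.78e-09) and than in glutamate-like neurons by 2.08. With free RNA subtracted these differences were 10.74 and 6.37. Free RNA held it at a mean of 4.54, above the mean of 1.91 in dopamine-like neurons. *Nts*, the neurotensin precursor, was at 1.89, 0.162, 0.029, 0.175 and 0.211 in dopamine-like neurons, with rat 1 far above the others, and was higher than in GABA-like neurons by 1.47 (adjusted p = 0.00857) and than in glutamate-like neurons by 1.72 (adjusted p = 0.0252). *Tac1*, the substance P precursor, had means of 0.110 in dopamine-like, 0.297 in GABA-like and 0.808 in glutamate-like neurons, against 1.07 in free RNA. It was lower in dopamine-like neurons by -2.19 against GABA-like (adjusted p = 0.000717) and by -3.28 against glutamate-like neurons. The calls of *Nts* and *Tac1* against GABA-like neurons were lost without the block (adjusted p = 0.260 and 0.0560), and those of *Nts* against glutamate-like neurons (adjusted p = 0.252) and of *Cck* as well (adjusted p = 0.0716 against GABA-like and 0.149 against glutamate-like neurons). The difference of *Nts* from GABA-like neurons was 2.42 without rat 2, and the calls of *Nts* were also lost without rat 4 (adjusted p = 0.0660 against GABA-like and 0.111 against glutamate-like neurons) and without rat 5 (adjusted p = 0.0740 and 0.0704). With own markers *Nts* differed from glutamate-like neurons by 3.15. With free RNA subtracted, *Tac1* gave -5.87 and -7.30, with own markers the first was -1.06, and thinned to 1000 UMIs its call was lost (adjusted p = 0.0824). Between GABA-like and glutamate-like neurons, *Tac1* was lower by -1.10 (adjusted p = 0.0352), which was lost without rat 1, 3, 4 or 5 (adjusted p up to 0.488), without the block (0.740), with free RNA subtracted (0.0534) and with nuclei thinned (0.113), and was -1.89 without rat 2.

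The other 8 genes of this list were near 0 in neurons. In dopamine-like, GABA-like and glutamate-like neurons, mean levels were 0.006, 0.010 and 0.005 for *Crh*, 0.036, 0.028 and 0.006 for its binding protein *Crhbp*, 0.004, 0.011 and 0.005 for the orexin precursor *Hcrt*, and 0.002, 0.019 and 0.004 for *Tac3*, the neurokinin B precursor. *Ucn* was at most 0.005, and *Ucn2*, *Ucn3* and *Oxt* had 0 UMIs in the 3 classes. All 3 ligand genes that could be tested were called in dopamine-like against GABA-like neurons, 2 higher and 1 lower, where 21.3% of all genes were called, with a median log2 fold change of 1.47 against -0.03 over all genes.

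Among related peptide receptors, 4 of 12 listed passed the filter in neurons, and 3 of the 4 were called against GABA-like neurons (21.3% of all genes) and 2 against glutamate-like neurons (17.1%). *Npsr1*, the neuropeptide S receptor, was higher in dopamine-like neurons, by 2.99 against GABA-like (SE 0.244) and 4.59 against glutamate-like neurons (SE 0.399). *Adcyap1r1*, the PACAP receptor, was lower than in GABA-like neurons by -0.59 (adjusted p = 0.0144, but 0.0993 without rat 2, 0.0579 without rat 5 and 0.700 without the block), *Sort1*, a sorting receptor that binds neurotensin, by -0.51 (lost without the block, adjusted p = 0.267, and with nuclei thinned, adjusted p = 0.286), and *Vipr2* was lower than in glutamate-like neurons by -0.93. *Vipr2*, a receptor for vasoactive intestinal peptide and PACAP, was also lower in GABA-like than in glutamate-like neurons (-1.20). Without rat 2 its differences were -0.54 (adjusted p = 0.393) and -0.96 (adjusted p = 0.0855), and without rat 3 the first was -0.90 (adjusted p = 0.0538). Both were lost without the block (adjusted p = 0.417 and 0.406). *Adcyap1r1* was higher in astrocyte-like nuclei than in neurons by 2.11 and in OPC-like nuclei by 0.88 (lost without the block, adjusted p = 0.203, and with own markers), but lower in oligodendrocyte-like nuclei by -1.99. *Sort1* was higher in oligodendrocyte-like nuclei by 2.15 and lower in OPC-like nuclei by -1.32 (-0.64 with doublets kept and -2.69 with free RNA subtracted), *Vipr2* lower and higher in these by -2.25 and 1.26 (the latter 0.67 with own markers), and *Npsr1* lower in astrocyte-like nuclei by -4.21.

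The list of the Gq and phospholipase C path also held *Gnas* and *Gnal*, which encode subunits of the Gs family, so its counts are not of Gq genes alone. Of 16 genes of this list that were tested in neurons, 5 were higher and 3 lower in dopamine-like than in GABA-like neurons (median 0.10), and 3 were higher and 5 lower than in glutamate-like neurons (median -0.14). In each this is 50% of the genes tested, against 21.3% and 17.1% of all genes, whose medians were -0.03 and -0.02. *Itpr1*, an inositol trisphosphate receptor, was higher in dopamine-like neurons in both, by 1.13 and 1.62. The protein kinase C gene *Prkce* was lower in both, by -1.40 and -1.45, the diacylglycerol kinase gene *Dgkb* was lower than in GABA-like neurons by -1.51, and *Gna14*, a Gq family subunit, was lower than in glutamate-like neurons by -1.71. *Gna14* was lower still in GABA-like than in glutamate-like neurons (-2.08), where 1 gene of the list was higher and 3 were lower (25% against 6.56% of all genes), with *Dgkb* at 0.86. Of 13 receptor regulators tested, 5 were higher and 2 lower than in GABA-like neurons, and 4 higher and 3 lower than in glutamate-like neurons (53.8% in each, against 21.3% and 17.1% of all genes), with medians of -0.15 and -0.12. Among these kinases and regulators of G protein signaling, *Grk3* was higher than in GABA-like neurons by 1.07, *Rgs9* by 0.97 and 1.04 against the 2 classes, and *Rgs8* by 1.04 against glutamate-like neurons, while *Rgs10* was lower by -1.02 and -1.0, the latter lost without rat 2 (adjusted p = 0.0636) or rat 4 (adjusted p = 0.0887). Without the block the calls of *Grk3* (adjusted p = 0.101), *Rgs9* (0.264 and 0.202), *Rgs8* (0.111) and *Rgs10* (0.191 and 0.373) were lost, as was that of *Dgkb* between GABA-like and glutamate-like neurons (0.246). In GABA-like against glutamate-like neurons *Rgs6*, *Rgs7* and *Grk3* were lower, by -0.54, -0.52 and -0.48. Each of these 3 calls was lost when any of 4 of the 5 rats was left out, with adjusted p of up to 0.250, 0.174 and 0.282, and all 3 were lost without the block and with own markers. *Grk3* was at -0.73 without rat 2.

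Of 15 effector channel genes tested, 2 were higher and 6 lower in dopamine-like than in GABA-like neurons (median -0.34), and 4 higher and 6 lower than in glutamate-like neurons (median -0.29). These are 53.3% and 66.7% of the genes tested, against 21.3% and 17.1% of all genes. The nonselective cation channel genes of the TRPC family moved in both directions. *Trpc6* was higher by 3.29 and 3.75 in dopamine-like than in GABA-like and glutamate-like neurons. *Trpc7* was lower than in GABA-like neurons by -2.92, and *Trpc4* was higher than in glutamate-like neurons by 2.56. *Trpc4* was higher in GABA-like than in glutamate-like neurons as well (2.73), and *Trpc5* lower (-0.51), which was lost without rat 2 (adjusted p = 0.103), without rat 4 (adjusted p = 0.137), without the block and with own markers (-0.03). Each list gene given as higher or lower passed the test, with an adjusted p of at most 0.0490.

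Against neurons, 14 of 15 effector channel genes were lower and none higher in astrocyte-like nuclei (median -3.46), 13 of 16 lower and 3 higher in oligodendrocyte-like nuclei (median -4.18) and 11 of 15 lower and 1 higher in OPC-like nuclei (median -1.16). Of all genes, 52.7%, 71.6% and 45.5% were called in these comparisons, with medians of -0.06, 0.04 and -0.05, and the share of channel genes called was 93.3%, 100% and 80%. *Trpc4* was lower in OPC-like nuclei by -6.11, *Trpc7* by -5.56 and the potassium channel gene *Kcnj6* by -1.86. For *Trpc4* and *Trpc7* the values were -10.74 and -10.20 with free RNA subtracted and -3.20 and -3.23 with own markers. In astrocyte-like nuclei the potassium channel gene *Kcnj3* was lower by -4.83, the calcium channel gene *Cacna1c* by -4.79 and the sodium leak channel gene *Nalcn* by -4.25, and in oligodendrocyte-like nuclei *Cacna1c*, *Trpc4* and *Kcnj3* were lower by -5.31, -5.31 and -5.30. Of the list of the Gq and phospholipase C path, 3 of 15 were higher and 8 lower in astrocyte-like, 4 of 17 higher and 11 lower in oligodendrocyte-like and 2 of 15 higher and 10 lower in OPC-like nuclei, which is 73.3%, 88.2% and 80% called against 52.7%, 71.6% and 45.5% of all genes. *Itpr2*, the inositol trisphosphate receptor known from glia, was higher in astrocyte-like nuclei by 4.22 and in OPC-like nuclei by 4.71. *Prkcb* was lower in astrocyte-like nuclei by -3.06, *Dgkb* and *Plcb1* in oligodendrocyte-like nuclei by -4.95 and -4.34, and *Gnal*, of the Gs family, in OPC-like nuclei by -2.0. Of the regulators, 6 of 13 were higher and 5 lower in astrocyte-like, 2 of 16 higher and 11 lower in oligodendrocyte-like and 3 of 13 higher and 9 lower in OPC-like nuclei (84.6%, 81.2% and 92.3% called, against the same shares of all genes), and *Rgs20* was higher in astrocyte-like nuclei by 4.32 and in OPC-like nuclei by 4.52. *Rgs9* was lower in the 3 glial classes by -3.30, -4.68 and -3.98, *Rgs17* in astrocyte-like nuclei by -3.16, *Grk3* and *Rgs7* in oligodendrocyte-like nuclei by -4.72 and -4.41, and *Rgs8* in OPC-like nuclei by -3.56. Of the ligand genes, *Tac1* was lower in all 3 glial classes, by -1.11, -1.0 and -0.54, *Nts* in astrocyte-like nuclei by -0.88 and *Crhbp* in oligodendrocyte-like nuclei by -1.24, whereas *Cck* was higher in oligodendrocyte-like nuclei by 0.43 with the counts as deposited but lower by -9.99 with free RNA subtracted. All 6 of these ligand calls were lost without the block (adjusted p = 0.0931, 0.164 and 0.529 for *Tac1*, 0.364 for *Nts*, 0.118 for *Crhbp* and 0.548 for *Cck*). With own markers *Tac1* was at -0.40 in astrocyte-like (adjusted p = 0.122) and -0.52 in oligodendrocyte-like nuclei, and with free RNA subtracted the latter was -9.94. Leaving out single rats ended the calls of *Tac1* in OPC-like nuclei (any of the 5, adjusted p up to 0.196), of *Nts* (rat 1, 4 or 5, up to 0.0907) and of *Cck* (rat 2 or 5, up to 0.219), and without rat 4 *Cck* was at 0.65.

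The genes most like each receptor across the 22 neuron sub-clusters were taken from 12759 genes by Pearson correlation, as a description over sub-clusters drawn from the same 5 libraries in unequal parts, with median depths from 1390.5 to 9490 UMIs. For *Tacr3* they were *Tert* (0.813), *Fgf13* (0.730) and *Ppp1r14b* (0.720), and for *Hcrtr2* *Dgkg* (0.885), *Npffr1*, a receptor for another neuropeptide (0.855), and *Mlip* (0.847). For *Tacr1* they were *Tspear* (0.807), *Slc25a14* (0.756) and *Galnt17* (0.748), and for *Crhr1* *Yap1* (0.747), *Pou6f1* (0.742) and *Rab31* (0.734). For *Crhr2* they were *Pawr* (0.847), *Gask1b* (0.847) and the unnamed gene AABR07026032.3 (0.846), of which *Pawr* and *Gask1b* were among the leading genes of sub-cluster 9. For *Ntsr1* they were *Clptm1l* (0.943), *LOC100360218* (0.929) and *Akr1b1* (0.914), and for *Ntsr2* *Tomm6* (0.879), *Egln3* (0.873) and *LOC498555* (0.872). In the neuron classes *Ntsr2* UMIs were at or under those free RNA would give, so its likeness need not describe RNA of the nuclei. The 22 sub-clusters include those that were given no class, some of them led by glial genes.

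In order of mean level, *Tacr3* was highest in dopamine-like neurons (2.11), then GABA-like (0.546) and glutamate-like neurons (0.253), and only the first of these was set apart from its neighbor by ranges that did not overlap. *Hcrtr2* ran from glutamate-like (1.37) over dopamine-like (1.06) to GABA-like neurons (0.783), whose ranges overlapped, and the means of all 3 were above that of vascular-like nuclei (0.124), the next class. By rat, the lowest GABA-like level (0.372, rat 2) was barely above the highest vascular-like level (0.370, 1 UMI in 14 nuclei of rat 3) and below the highest astrocyte-like level (0.404, 6 UMIs in rat 3). For the other 8 receptor genes every class overlapped the next in order. RefSeq places *Ntsr1* over the pseudogene LOC121627837 and *Cckbr* over the noncoding gene LOC108349007, so that UMIs of these receptors could be split or shared if both were in the authors' annotation.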

How the data were processed

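UMI counts per gene and barcode were deposited by the authors as unfiltered matrices, 1 per library, with empty droplets included and before any correction for free RNA, filter, normalization or integration. The libraries were made with a droplet-based 3′ gene expression assay and counted with Cell Ranger 8.0.1 per the submitters' processing notes. The headers of the deposited matrices name an earlier version of Cell Ranger instead. Versions differ in whether intronic reads are counted by default, and which setting gave these counts was not given in the sources used here, nor was the genome build. Genes were used by the names and Ensembl identifiers of the files, and *Galr2*, *Vipr1*, *Adrbk1* and *Adrbk2* of the lists were not among them. *Adrbk1* and *Adrbk2* are older names of *Grk2* and *Grk3*, which the files held. The receptors and lists were chosen with earlier results of these data known, and the marker thresholds and the doublet rule were set after the nuclei had been clustered.

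The limits on genes and mitochondrial UMIs follow the study, with a minimum of 1000 UMIs, on the counts as deposited. Doublets were scored with Scrublet in scanpy 1.11.5. Its automatic threshold marked only 8 nuclei (0.0362%), so the highest scores of each library were removed, at 0.8% per 1000 nuclei, which took 1068 nuclei (4.84%). Nuclei were clustered on 2000 variable genes, with 82 receptor and list genes held out, 30 principal components, 20 neighbours and Leiden clustering at resolution 1 (leidenalg 0.10.2), and neurons were clustered again. A neuron sub-cluster of at least 50 nuclei was named from *Th* of at least 2, *Gad1* plus *Gad2* of at least 2 or *Slc17a6* plus *Slc17a7* of at least 1 per 10000 UMIs. Clusters with markers of more than 1 type, 3099 nuclei, were left out, and 2069 further neurons, in sub-clusters that met none or more than 1 of these rules, were led by glial genes or were too small, were given no class. Free RNA was taken from barcodes under 100 UMIs. Barcodes ranked by UMIs far beyond those kept still held 558, 218 and 260 UMIs in rats 2, 4 and 5, against 22 in rats 1 and 3. In rats 2, 4 and 5 droplets without a nucleus may thus lie above this limit, so the UMIs expected from free RNA are uncertain, which was not tested. Free RNA made up a median of 6.17% to 7.91% of UMIs in the neuron classes and 11.6% to 15.1% in the 3 glial classes compared, estimated from markers of other classes. Shares of single receptors after thinning are exact expectations for 1000 UMIs drawn from each nucleus. Thinned shares with any receptor, at least 2 receptors or a pair multiply the chances of single receptors as if independent within a nucleus, and are approximate.

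Sums of UMIs per rat and class went into edgeR 4.0.16 in R 4.3.3, with its quasi-likelihood F test, TMM scaling, the filterByExpr filter and the rat as a block. The procedure was also run on simulated counts with no differences between rats, which cannot test the block. In dopamine-like against GABA-like neurons it recovered 66% of 100 genes changed 2-fold and 97% of 100 changed 4-fold. In astrocyte-like nuclei against neurons these were 66% and 92%. Genes with a Benjamini-Hochberg adjusted p under 0.05, over all genes tested, were called. The SE of an edgeR fold change was derived from the test, as the absolute log2 fold change divided by the square root of F. The classes come from the same animals, and after removal of the class means, 2 sums of 1 rat correlated at 0.207 to 0.851 in each of 30 pairs. All 10 receptors are named, with the 3 largest changes past the threshold in each list, of which some are not reported here. Alternatives were DESeq2 1.42.0, its size factors, no filter on low counts, no block, doublets kept, free RNA subtracted, a minimum of 2000 UMIs, thinned nuclei, nuclei typed by their own markers, and each rat left out. With free RNA subtracted, a sum kept no UMIs of a gene where more were expected than counted. Very large fold changes under that alternative can rest on such emptied sums. Promoter windows came from RefSeq, where all 10 genes had an entry.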

Additional observations from a re-analysis of the deposited data

Results flagged for a closer look

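Of 45 receptor levels with at least 10 UMIs over the 5 rats, 9 had 1 rat far from the other 4 by Dixon's test. Chance alone flags about 1 of 20 groups where values are equally precise, but these levels rest on very unequal counts, several on 1 or 2 UMIs, so that the number is not to be read against that rate. In rat 1, *Ntsr2* was at 0.343 UMIs per 10000 in dopamine-like neurons (2 UMIs in 12 nuclei), 0.171 in GABA-like neurons (12 UMIs in 99 nuclei) and 0.369 in microglia-like nuclei (7 UMIs), above the other rats in each. *Hcrtr1* was at 0.172 in the dopamine-like neurons of rat 1, on a single UMI. In rat 3, *Hcrtr2* was at 0.404 in astrocyte-like nuclei (6 UMIs) and 0.159 in oligodendrocyte-like nuclei (5 UMIs), and in oligodendrocyte-like nuclei *Crhr1* was at 0.0638 (2 UMIs) and *Tacr1* at 0.0319 (1 UMI), again above the other rats. *Hcrtr2* was at 0 in the microglia-like nuclei of rat 5, below the other rats. Free RNA held *Ntsr2* at 0.640 in rat 1, against 0.141 to 0.394 in the others, and *Hcrtr2* at 0.450 in rat 3, against 0.10 to 0.315, and the part of free RNA in these levels was not tested.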

How the results depend on the processing

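The 25 receptor results that passed the filter with all 5 rats were computed under up to 14 alternatives, which gave 332 values. Results that passed it only under an alternative are not among them. No called difference changed direction, 303 kept their side of the threshold, 23 lost the call and 6 gained it, and those that changed were given beside the results, apart from *Crhr1* in dopamine-like against glutamate-like neurons, which was called with own markers (-1.25, adjusted p = 0.00552). *Crhr1* in GABA-like against glutamate-like neurons, at -0.01 and not called, changed sign under 4 alternatives (no filter, and without rat 3, 4 or 5, up to 0.06) and was -0.61 with own markers, with no call in any. For the genes of the lists named, 80 results gave 1079 values, of which 970 kept their side of the threshold and 108 lost the call, 29 of them without the replicate block. Own markers moved several called values by over 1.5 times, among them *Npsr1* (2.47) and *Trpc4* (1.25) in dopamine-like against glutamate-like neurons and *Trpc4* in GABA-like against glutamate-like neurons (1.65). With free RNA subtracted, list genes called lower in oligodendrocyte-like nuclei moved further below neurons, *Cacna1c* to -11.55 and *Dgkb* to -10.87. The share subtracted in glia was scaled by neuron markers, and no UMIs were left where more were expected than counted. Neuron genes therefore fall in glia by construction, and the size of such values is not a measured difference. The list result to turn was *Cck* in oligodendrocyte-like nuclei, from 0.43 to -9.99 with free RNA subtracted.

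The numbers of genes called, for dopamine-like against GABA-like, dopamine-like against glutamate-like and GABA-like against glutamate-like neurons and for astrocyte-like, oligodendrocyte-like and OPC-like nuclei against neurons, were 2276, 1821, 700, 5786, 9322 and 4446. Without the replicate block, which pairs classes of the same rat, they were 747, 567, 110, 3636, 5914 and 2256. With nuclei thinned to 1000 UMIs, where fewer UMIs were left to test, they were 1024, 784, 356, 3208, 5949 and 2162. GABA-like against glutamate-like neurons also gave 1094 calls with no filter on low counts and 368 with own markers, and the cause was not tested. With each rat left out in turn the counts ranged from 1614 to 2670, 1198 to 2165, 482 to 872, 4239 to 6271, 7716 to 9723 and 3565 to 4858, where 1198 was without rat 2.

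Whether depth or low expression kept the UMIs of the sparse receptors few was not tested. *Oxtr* and *Cckbr* had too few UMIs to compare, and rat 1 gave 12 dopamine-like neurons. Classes were named by markers here, and all levels are nuclear RNA, not receptor protein. Separate animals are the only replicates, and there is 1 condition.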
